A study of Homo sapiens with 2 samples.

Results

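E2F1 was called at the start site of all 7 genes examined here, which encode the enzymes and partners that write and maintain DNA methylation and the H3K9 methylation of heterochromatin. The genes are DNMT1, UHRF1, HELLS, DNMT3A, DNMT3B, SUV39H1 and SUV39H2. They were chosen by name, with earlier results of these data known, so the counts and scores below describe these genes and test nothing. A peak was assigned to a gene when it overlapped the 2 kb either side of a given start site in the hg19 genome. The windows held 7 peaks, 1 for each gene, of 28734 peaks in all. Of all positions on chromosomes 1 to 22, X and Y, 3.93% have a peak within 2 kb. The share of all promoters with a peak was not computed, so the count does not set these genes apart. The peak list came from chromatin immunoprecipitation followed by sequencing (ChIP-seq), an assay that maps where a protein sits on DNA, made with a pair of E2F1 antibodies in LNCaP-abl cells. LNCaP-abl is an established prostate cancer line that was derived from LNCaP, no longer needs androgen to grow, and stands in for tumours that resist castration. Passages 61 to 64 were used, in medium whose serum (10%) had been stripped of androgens with charcoal, and androgen was withheld for 3 days ahead of the harvest. The other sample of the series is an input of the same cells without antibody, whose signal was not analysed here. Whether the authors' peak calls and scores were made against that input is not stated. The list gives no read counts, the depth is unknown, and the single library gives no replicate error.

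E2F1 is a transcription factor that binds mostly at promoters, above all those of genes needed to start and carry out DNA replication. DNA methylation has to be copied onto the new strand after each round of replication. DNMT1 is the methyltransferase that does this, UHRF1 recognises the hemimethylated DNA behind the fork and brings DNMT1 to it, and HELLS (also called LSH) is a helicase of the SNF2 family that remodels chromatin and is needed for normal methylation of repeats. DNMT3A and DNMT3B are the de novo methyltransferases, which set methylation on unmethylated DNA. SUV39H1 and SUV39H2 are closely related histone methyltransferases that trimethylate H3K9 in constitutive heterochromatin, the mark read by HP1 proteins.

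The promoter sequences were searched for words of the kind at which E2F proteins are known to bind. RefSeq promoters of assembly GRCh38.p14, each from 250 bases before to 50 bases after an annotated start, were matched by symbol for all 7 genes, with 15 starts among them. Both strands were searched for 4 E2F words of 8 letters, TTTCGCGC, TTTGGCGC, TTTCCCGC and TTTGCCGC. At least 1 word was found at 3 of the 7 genes, HELLS, DNMT1 and UHRF1, whereas 5.40% of 15843 protein-coding genes and 3.99% of all 27305 genes in the table hold one. For DNMT3B the only start listed lies 17467 bp inside the gene, and the first UHRF1 start lies 6421 bp inside its gene. The 5' ends of these genes were therefore not searched. By single start, 4 of the 15 held a word, against 3.31% of all 35116 starts. Only 22199 of those starts belong to protein-coding genes, for which no share by start was computed. Windows of nearby starts of the same gene overlap, so the 15 are not separate searches. Matches of different words may overlap, and each gene was counted once. The bases before the first annotated start of 5 genes are given below, the 3 with a word (in capitals) and, for contrast, SUV39H2, whose peak also scored high, and DNMT3A, whose peak scored lowest. The DNMT1 run is carried on for 6 bases past the start to close a word that spans it.
HELLS, chr10:94545538-94545787, + strand: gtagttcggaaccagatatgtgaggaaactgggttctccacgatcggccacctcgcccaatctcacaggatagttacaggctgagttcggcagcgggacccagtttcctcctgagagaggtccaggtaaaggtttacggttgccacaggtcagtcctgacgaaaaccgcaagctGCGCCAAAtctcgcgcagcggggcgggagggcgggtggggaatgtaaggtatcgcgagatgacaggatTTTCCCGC
DNMT1, chr19:10194948-10195203, - strand: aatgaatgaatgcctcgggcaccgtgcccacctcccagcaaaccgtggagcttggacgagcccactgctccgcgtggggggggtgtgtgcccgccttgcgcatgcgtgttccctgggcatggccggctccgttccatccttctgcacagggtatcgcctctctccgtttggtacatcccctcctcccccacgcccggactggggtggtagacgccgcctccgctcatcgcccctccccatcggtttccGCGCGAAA
UHRF1, chr19:4909251-4909500, + strand: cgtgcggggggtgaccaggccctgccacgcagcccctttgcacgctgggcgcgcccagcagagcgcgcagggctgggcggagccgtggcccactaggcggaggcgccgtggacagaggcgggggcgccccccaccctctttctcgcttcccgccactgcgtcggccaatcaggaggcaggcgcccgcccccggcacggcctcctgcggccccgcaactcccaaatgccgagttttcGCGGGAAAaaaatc
SUV39H2, chr10:14878616-14878865, + strand: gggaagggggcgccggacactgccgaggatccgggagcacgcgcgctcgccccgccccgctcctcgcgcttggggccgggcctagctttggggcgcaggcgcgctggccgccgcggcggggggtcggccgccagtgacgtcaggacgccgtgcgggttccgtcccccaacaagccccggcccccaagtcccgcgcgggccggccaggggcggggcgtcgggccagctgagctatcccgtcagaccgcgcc
DNMT3A, chr2:25342591-25342840, - strand: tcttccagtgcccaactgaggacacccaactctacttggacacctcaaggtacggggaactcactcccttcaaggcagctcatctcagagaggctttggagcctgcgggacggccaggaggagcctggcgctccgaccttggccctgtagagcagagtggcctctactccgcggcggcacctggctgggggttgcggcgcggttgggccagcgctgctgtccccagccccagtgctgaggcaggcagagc

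Counting the annotated start as +1, HELLS held a pair of words, TTTGGCGC on the minus strand from -76 to -69 and TTTCCCGC on the plus strand from -8 to -1. DNMT1 held TTTCGCGC on the strand opposite to transcription, from -2 to +6. UHRF1 held TTTCCCGC on the opposite strand from -14 to -7, and its second annotated start, 643 bp further downstream, had TTTCGCGC from -160 to -153. The 300-base windows of SUV39H2, of both SUV39H1 starts, of the single DNMT3B start and of all 6 DNMT3A starts held none of the 4 words. A match is a run of letters and not a shown binding site. All of these coordinates are GRCh38.p14 and were not set base by base against the hg19 start sites used for the peaks. SUV39H1 is not printed because its starts lie 1180 bp apart and which of them corresponds to the hg19 position was not determined. UHRF1 and DNMT3A also have several listed starts, and whether the printed first start corresponds to the hg19 position was not determined either. DNMT3B is not printed because its listed start lies 17467 bp inside the gene.

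The promoter windows differed widely in base composition, from 56.3% G and C at the first SUV39H1 start to 83.0% at the third DNMT3A start, against a median of 58.7% over all starts in the table and 62.3% over those of protein-coding genes. HELLS, at 57.7%, was below both medians. The DNMT3B window, at 61.7%, was below that of protein-coding genes, but it lies inside the gene and not at its 5' end. No window of any of the 7 genes was matched to the hg19 start under its peak. CpG dinucleotides, the substrate of the enzymes that 3 of these genes encode, numbered 44 in the 300 bases of SUV39H2, 30 in those of DNMT1 and 22 in those of HELLS. UHRF1 had 36, 40 and 46 CpGs at its 3 starts, which lie within 866 bp of each other and inside the gene. SUV39H1 had 7 at its first start and 42 at its second, and the single DNMT3B start, inside the gene, had 3. The median over all starts in the table was 14, and over the 22199 starts of protein-coding genes it was 21. DNMT3A had 18, 26 and 46 CpGs at its outer 3 starts, which lie within 665 bp of each other, and 28, 26 and 18 at its inner 3. HELLS, with 22, had the highest-scoring peak. Whether CpG number and peak score are related was not tested, and these windows were not matched to the hg19 starts.

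The peaks at 6 of the 7 genes were in the top 10% of the list by score, and the peak at DNMT3A was at the middle of it. The score is the authors' own value for each peak, taken to be higher for stronger peaks. No source used here gives its scale, so it serves only to rank peaks within the list. The median score over the 7 peaks was 181, against 23.5 over all peaks. By definition, 10.0% of all peaks are in the top 10% and 5.0% in the top 5%, where 5 of the 7 genes had their peak. Only HELLS reached the top 1%, which holds 1.0% of peaks. A peak within 2 kb was found at all 7 start sites, whereas 3.93% of the positions on chromosomes 1 to 22, X and Y have one that near. Positions are not promoters, and the share of all promoters with a peak was not computed here, for want of an hg19 annotation. Whether these genes differ from other promoters in occupancy or score was therefore not tested.

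**Figure D1:**
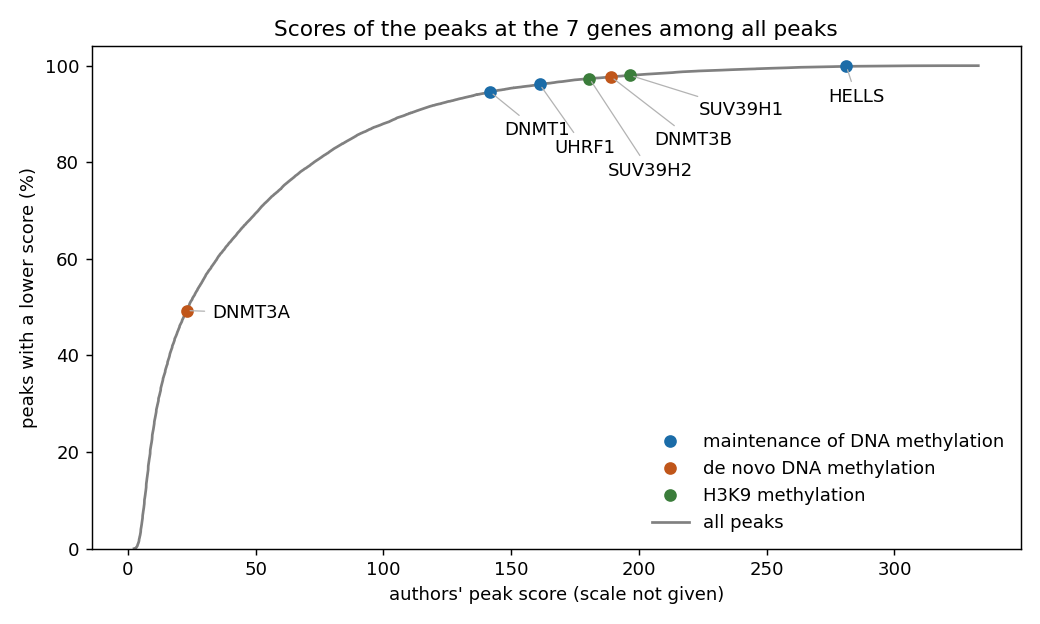
Cumulative distribution of the authors' peak score over all 28734 peaks (grey line; x axis, score; y axis, percent of peaks with a lower score), with the peaks at the 7 start sites as points coloured by the role of the gene. HELLS lies at 281, the 5 genes from DNMT1 to SUV39H1 between 142 and 197, and DNMT3A at 22.9. HELLS shares the colour of DNMT1 and UHRF1 for display only.

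HELLS had the highest score of the 7 genes. The hg19 start of HELLS is at position 96305574 of chromosome 10, and its peak ran from 96305085 to 96305935 (851 bp) with a score of 281. It ranked 42 of 28734 peaks, above 99.9% of them (exact 95% interval 99.8 to 99.9%). Intervals on percentiles treat the listed peaks as a sample, cover counting error only, and do not measure the spread between libraries. On chromosome 10 it ranked 2 of 1273 peaks. The score was 1.43 times that of the next of the 7 genes, SUV39H1.

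UHRF1 and DNMT1, whose proteins act together behind the replication fork, both lie on chromosome 19. For UHRF1 (start 4909510) the peak ran from 4909168 to 4910325 (1158 bp) and scored 161, above 96.1% of all peaks (95.9 to 96.3%) and at rank 1119. For DNMT1 (start 10305755, minus strand) it ran from 10304937 to 10305891 (955 bp) and scored 142, above 94.6% (94.3 to 94.8%) and at rank 1564. These were the lowest scores of the 6 genes in the top 10%. Set only against chromosome 19, both had a lower percentile. DNMT1 was above 92.7% and UHRF1 above 95.2% of the 1531 peaks there.

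The de novo methyltransferase genes lay far apart in score. DNMT3B (chromosome 20, start 31350191) had a peak from 31349723 to 31350595 (873 bp) with a score of 189, above 97.7% of all peaks (97.5 to 97.8%) and at rank 668. On chromosome 20 it ranked 19 of 835 peaks. DNMT3A (chromosome 2, start 25565459, minus strand) had a peak from 25564479 to 25565667 (1189 bp) with a score of 22.9, above 49.3% of all peaks (48.7 to 49.9%) and at rank 14569. The other 6 genes had scores from 6.18 to 12.3 times that of DNMT3A. Without a replicate, the spread of such a score between libraries is not known, and the difference between these genes was not tested.

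The SUV39H genes were close to each other. SUV39H1 (X chromosome, start 48555131) had a peak from 48554796 to 48555687 (892 bp) with a score of 197, above 98.0% of all peaks (97.8 to 98.1%) and at rank 581. It ranked 8 of the 582 peaks on X. SUV39H2 (chromosome 10, start 14920782) had a peak from 14920340 to 14921438 (1099 bp) with a score of 181, above 97.3% (97.1 to 97.5%) and at rank 772. SUV39H2 has a divergent partner in RefSeq, the long non-coding RNA gene SUV39H2-DT, whose start lies 207 bp away on the other strand in GRCh38.p14. A peak of this width cannot be assigned to one of the pair alone. No other gene of the table starts within 2 kb of any listed start of the 7 genes. The listed start of DNMT3B lies 17467 bp inside the gene, and the first of UHRF1 lies 6421 bp inside. The surroundings of the 5' ends of these genes were therefore not covered.

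Each of the 7 peaks covered the start site itself, but they were placed differently about it. The peaks of HELLS and DNMT3B were nearly centred on it, with midpoints 64 and 32 bp upstream (-64 and -32). The HELLS peak extended 489 bp upstream and 361 bp downstream, and the DNMT3B peak 468 bp upstream and 404 bp downstream. SUV39H1 and SUV39H2 had their midpoints 110.5 and 107 bp downstream of the start. UHRF1, DNMT1 and DNMT3A were shifted furthest into the gene, with midpoints 236.5, 341 and 386 bp downstream. The DNMT1 peak reached 136 bp upstream and 818 bp downstream, and the DNMT3A peak 208 bp upstream and 980 bp downstream. That 980 bp was the farthest reach from a start site inside the windows, and the nearest peak outside them began 5668 bp downstream of UHRF1, with a score of 29.4. The list has no summits, so the point of highest signal within a peak is not known.

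**Figure D2:**
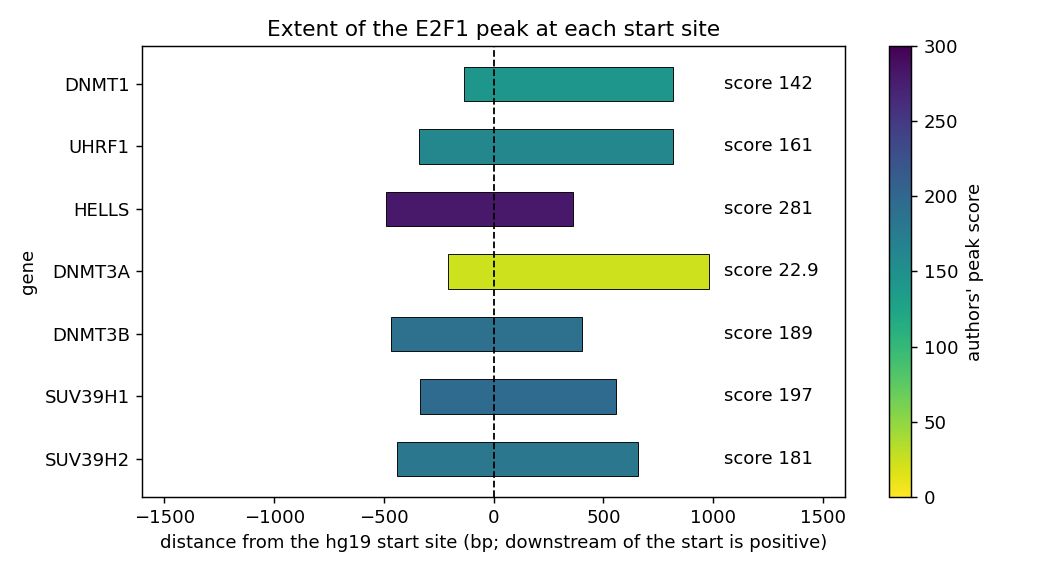
Extent of the E2F1 peak around each hg19 start site (x axis, distance in bp in the direction of transcription; dashed line, the start; 1 row a gene), with the bar coloured by the authors' score. Every bar crosses the start, those of HELLS and DNMT3B nearly evenly, and that of DNMT3A is the widest and has the lowest score.

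All 7 peaks were wide for this list, at 851 to 1189 bp with a median of 955 bp, against a median of 418 bp over all peaks. All 7 were in the top 25% by width (25.1% of peaks) and 4 were in the top 10% (10.0%), those of DNMT3A, UHRF1, SUV39H2 and DNMT1. The widths were not set against those of other high-scoring peaks. To compare peaks of like width, each was also set against those within 50 bp of its own width. Such peaks had median scores from 70.2 at the DNMT3A width to 77.9 at the SUV39H2 width, against 23.5 over all peaks. HELLS scored above 99.4% of 1588 such peaks, SUV39H1 above 93.3% of 1423, SUV39H2 above 92.5% of 630 and DNMT3B above 91.8% of 1516. UHRF1 scored above 89.1% of 468 and DNMT1 above 83.7% of 1175. DNMT3A stood at the other end. Its peak was wider than 97.4% of all peaks, yet only 13 of 428 peaks of that width scored lower (3.04%, exact 95% interval 1.63 to 5.14%), and the median score at that width was 70.2. The DNMT3A score was held to the last decimal by 3 peaks of the list, itself included, while the other 6 scores each occurred once. How common such ties are over all peaks was not counted.

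**Figure D3:**
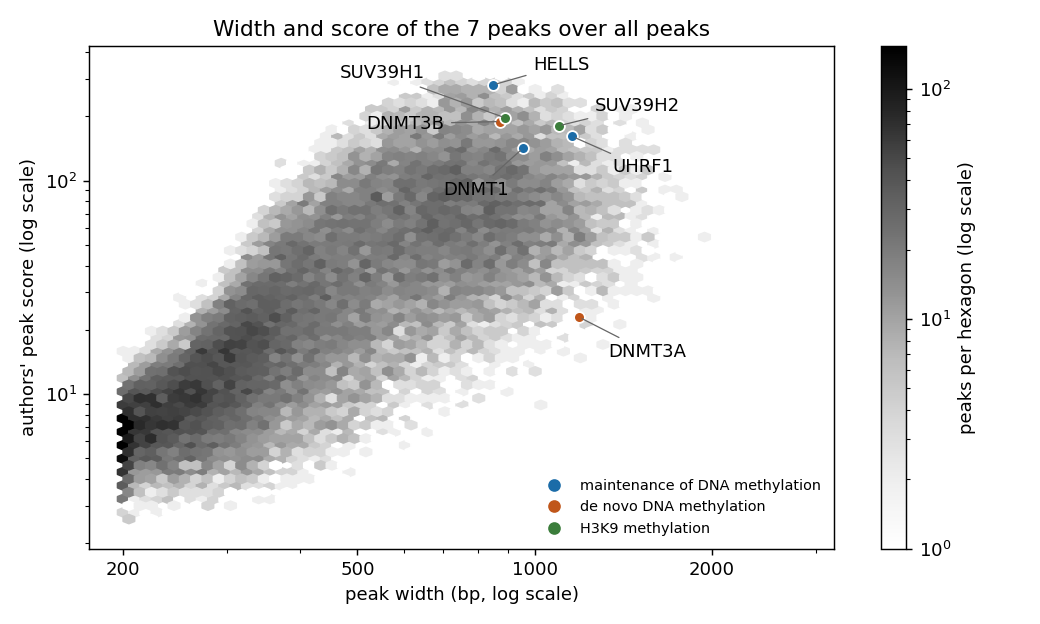
Peak width in bp (x axis, log scale) against the authors' score (y axis, log scale) for all peaks, as hexagons shaded by the number of peaks, with the 7 peaks as coloured points. The peaks of 6 genes lie in the upper part of the cloud, and DNMT3A lies at its lower edge, with a width of 1189 bp and a score of 22.9.

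The surroundings of the start sites differed as well. Within 100 kb of the 7 starts lay 36 other peaks, with a median score of 33.2. Each start had a median of 5 others, against 3 around all nuclear peaks (quartiles 2 and 6). The peak at the start scored highest within 100 kb for 5 of the 7 genes, compared with 31.1% of all nuclear peaks and 76.8% of those in the top 10% by score. The share in the top 10% is the closer background, because 6 of the 7 peaks belong there, and 5 of these 6 scored highest. The exceptions were SUV39H2 and DNMT3A.

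HELLS stood nearly alone. Its sole neighbour within 100 kb, 14.5 kb upstream, scored 12.0, and on the other side no peak followed for 637093 bp. DNMT1 had 9 neighbours within 100 kb, the most of the 7 genes, of which the highest scored 80.7. The nearest to DNMT1 was 35.7 kb upstream and the next 56.6 kb upstream. UHRF1 had 8 neighbours, among them a peak 93.4 kb upstream that scored 159, close to its own 161. DNMT3B had 5 neighbours, from 6.39 to 99.4 in score. SUV39H1 also had 5, from 7.17 to 56.2. SUV39H2 had a higher peak on either side, 40086 bp upstream with a score of 189 and 75033 bp downstream with a score of 218.

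**Figure D4:**
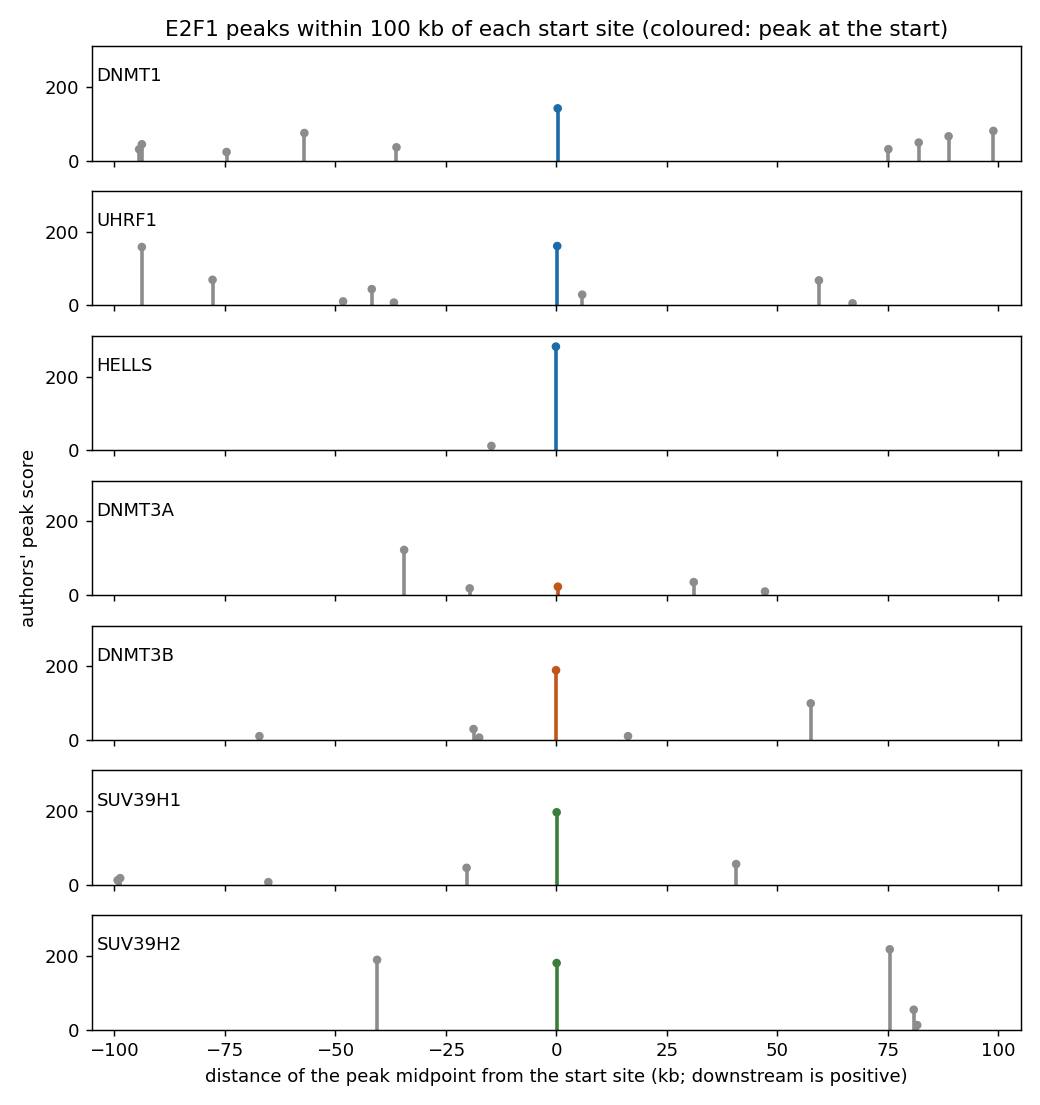
E2F1 peaks within 100 kb of each start site (x axis, distance of the peak midpoint in kb in the direction of transcription; y axis, the authors' score), with the peak at the start in colour and the others in grey. HELLS has 1 other peak and DNMT1 has 9, and a taller peak than that at the start is seen for DNMT3A and SUV39H2.

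DNMT3A, a large gene with an inner promoter, had its strongest nearby peak outside the gene. That peak began 34.1 kb upstream of the start, ran from 25599567 to 25600114 and scored 123, above 92.2% of all peaks. A peak 19.4 kb upstream scored 18.4. Downstream of the start, peaks lay at 30.9 kb with a score of 35.3 and at 47.1 kb with a score of 9.89, and the next lay at 113.5 kb with a score of 6.44. In GRCh38.p14, RefSeq lists 3 inner starts of DNMT3A between 90275 and 90459 bp downstream of the outermost one. In hg19 no peak was called between 47368 and 113544 bp downstream, though the inner starts were not placed in hg19 here. For UHRF1, RefSeq puts the 5' end of the gene 6421 bp upstream of the first start listed, and no peak was called between 36575 and 342 bp upstream of the hg19 start. For DNMT3B, the start listed in RefSeq is 17467 bp inside the gene, and the nearest peak downstream of the hg19 start lay 16126 to 16370 bp from it with a score of 10.4.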

How the data were processed

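One peak list was used, that of the E2F1 immunoprecipitation. The build was hg19 and the tools listed were MACS2 2.0.9, Bowtie and CASAVA 1.6.0, per the submitters' processing notes. What each tool did, its settings, the peak threshold and the use of the input are not stated there. Per the labels' protocols, sonicated chromatin was precipitated and sequenced on an Illumina NextSeq instrument. The authors deposited for each peak its position and 1 score of unstated scale, with no read count. Its peak names refer to replicate 1.

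Starts were taken as 0-based and are printed 1-based in hg19. A peak was assigned by an overlap of at least 1 bp with the 2 kb either side of the start. A percentile is the percent of all 28734 peaks with a lower score, with an exact Clopper-Pearson 95% interval. The 100 kb background used chromosomes 1 to 22, X and Y, around peak midpoints. Positions were counted between the outermost peaks of each chromosome. No test was run, as 1 library gives none. All 7 genes are named, by rule. The members and lists were chosen with earlier results of these data known. Other genes of the pathway were not analysed, since no hg19 annotation was used here. The overlap, percentile and motif searches were tested on simulated data. Python 3.11.15, pandas 2.3.3, numpy 2.4.6, scipy 1.17.1 and matplotlib 3.10.9 were used.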

Additional observations from a re-analysis of the deposited data

How the results depend on the processing

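Of 59 alternatives, 47 stayed within the interval of the value or within 1.5 times the count, 12 moved and 0 reversed. Some could not move, since each window held only its own peak, so that taking the nearest or every peak gave the same value. All 7 genes kept a peak within 1 kb, within 5 kb, with the peak covering the start or lying wholly in the window, and 6 had one among the top 50%, top 25% and top 10% of peaks. Against peaks of the same chromosome, the percentile of the score was 92.7 for DNMT1, 53.5 for DNMT3A, 95.2 for UHRF1, 98.6 for SUV39H1 and 97.6 for SUV39H2. Against peaks within 50 bp of the width it was 83.7 for DNMT1, 3.04 for DNMT3A, 91.8 for DNMT3B, 89.1 for UHRF1, 99.4 for HELLS, 93.3 for SUV39H1 and 92.5 for SUV39H2. These settings change the peaks ranked against, and no further cause was tested. Leaving out each gene in turn gave median scores from 171 to 185. They were judged by the range of the 7 scores, a wide interval that such medians cannot leave. No paired analysis was possible because the peaks come from 1 sample. Limits set by depth could not be judged without read counts. How these peaks compare with the input was not analysed here.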
